A study of Mus musculus with 12 samples.

Results

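Compact myelin is the tightly wrapped membrane that oligodendrocytes lay around axons, and 6 genes that encode structural proteins of this membrane or of the seams between its layers are described here: Mbp, Mobp, Cldn11, Mal, Pllp and Gpm6b. They were taken by name from the gene column of 6 peak lists of H4K8ac, acetylation of lysine 8 on histone H4, a mark found at active promoters and enhancers. They are 6 of the 23433 genes named in those lists. The lists come from chromatin immunoprecipitation and sequencing (ChIP-seq) of oligodendrocyte progenitor cells (OPCs), the dividing precursors of oligodendrocytes. OPCs were sorted from the forebrain of PdgfrαH2BEGFP mice, in which a nuclear green fluorescent protein reports Pdgfra, a receptor gene of OPCs. There were 3 neonatal libraries (postnatal day 5) and 3 adult libraries (postnatal day 60), each labelled a biological replicate. Both ages carried the reporter and no other allele or treatment is named. Sex and the number of animals per library were not given, and fibroblast-like cells around vessels also express Pdgfra. The 6 input libraries of the series of 12 samples were not analysed here.

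Myelin basic protein (Mbp) holds the inner faces of the membrane together, and its messenger RNA is carried into oligodendrocyte processes and translated there. Mobp is another small, basic myelin protein with a similar place in the sheath. Cldn11 forms the tight junction strands that seal the myelin layers, Mal and Pllp are membrane-spanning proteins of the MARVEL family that take part in sorting membrane to myelin, and Gpm6b is a membrane protein of the proteolipid family. In the textbook sequence, progenitors express these genes weakly or not at all and switch them on as they differentiate.

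The libraries differed in the length of their lists. There were 9097, 31189 and 7353 neonatal peaks (replicates 1, 2 and 3) against 72278, 72661 and 77002 adult peaks, so that total covered length was 2.33 to 13.7 Mb against 41.9 to 60.9 Mb. Read numbers were not used here, so depth is unknown, and neonatal replicate 2 stood apart from the other neonatal libraries throughout. Because the adult lists were longer, the count of the 6 genes in each comparison is set beside the share of all genes with the same pattern. With 3 libraries against 3 the exact two-sided permutation test cannot give a p below 0.1, so a gene is described by whether its adult and neonatal values overlapped. In these bulk libraries, more cells with the mark and more mark per cell cannot be told apart.

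The mark covered far more of these genes in adult than in neonatal progenitors. Peaks assigned to the 6 genes numbered 10, 26 and 4 in the neonatal lists and 151, 142 and 136 in the adult lists. They covered 2.78, 12.5 and 1.04 kb against 122, 126 and 160 kb. As a share of everything covered in a library this was 0.0935, 0.0914 and 0.0445% in neonatal and 0.292, 0.285 and 0.262% in adult libraries, so the lowest adult share lay above the highest neonatal share. The increase for these genes was therefore larger than that of the lists as a whole. Among the neonatal libraries, 3, 5 and 2 of the 6 genes had any peak. Of the 23433 genes named in the lists, 6973, 16202 and 6058 had one there, so this count does not set the 6 genes apart.

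All 6 genes had more covered length in every adult library than in any neonatal library. The same held for 60.0% of all genes tested (14051 of 23433), so the count alone does not set these genes apart. Their sizes stood higher in the distribution: the median difference of the 6 genes was 21.1 kb, against 0.661 kb for all genes and 7.91 kb at the 95th percentile of all genes. Mbp and Pllp already ranked high in the neonatal lists. Among all genes they stood at percentiles 99.7, 99.4 and 92.6 (Mbp) and 98.2, 99.6 and 96.2 (Pllp) of neonatal covered length. Mobp, Cldn11, Mal and Gpm6b each had a neonatal list without a peak. Each of the 6 differences gave the smallest possible p of the exact permutation test (0.1), with a Benjamini-Hochberg adjusted p of 0.166 over all genes.

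Mbp peaks covered 1.64, 4.89 and 0.435 kb in neonatal replicates 1, 2 and 3 and 29.0, 26.3 and 36.0 kb in adult replicates 1, 2 and 3. The means were 2.32 ± 2.30 and 30.4 ± 4.99 kb (SD, n = 3 each), a difference of 28.1 kb. Mobp had no peak in any neonatal list and 15.6, 14.3 and 13.3 kb in the adult lists. It was the one member without a neonatal peak. Its adult mean was 14.4 ± 1.15 kb (SD, n = 3).

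Cldn11 was peak-free in neonatal replicates 1 and 3, had 1.38 kb in replicate 2, and reached 25.4, 26.2 and 30.0 kb in adult libraries. The gap between the ages was 26.7 kb, many times the adult SD of 2.50 kb. Mal had a single neonatal peak of 141 bp, in replicate 2, and 15.8, 18.8 and 22.7 kb in adult libraries. Those Mal values gave a difference of 19.1 kb.

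Pllp, like Mbp, had peaks in each neonatal list: 0.939, 5.27 and 0.602 kb, against 19.5, 21.1 and 23.6 kb in adult libraries. The difference was 19.1 kb with an adult SD of 2.09 kb. Gpm6b had 0.198, 0.866 and 0 kb in neonatal and 16.9, 19.3 and 34.0 kb in adult libraries. Gpm6b varied most among adult libraries (SD 9.26 kb), with replicate 3 well above the other two. Neonatal and adult libraries did not overlap for any of the 6 genes, and in every one of the 5 genes with neonatal peaks, replicate 2 was the highest neonatal library.

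**Figure D1:**
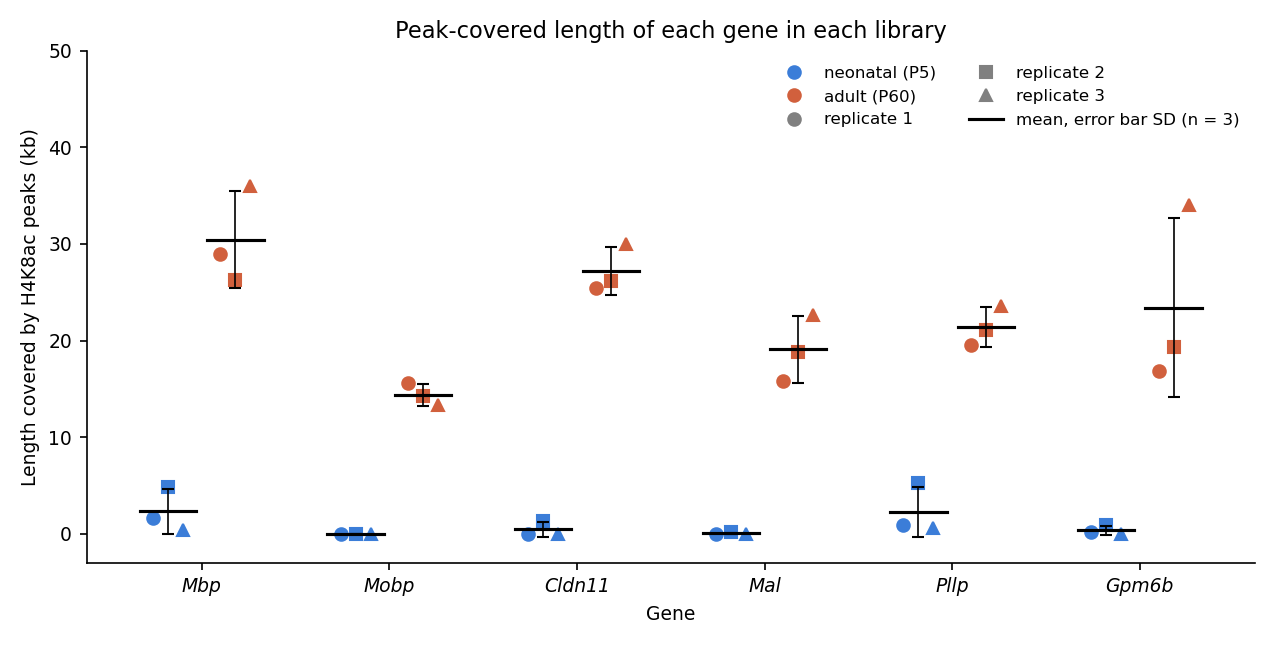
Length covered by H4K8ac peaks (kb, vertical axis) for each gene in each library; points are libraries, bars the mean with its SD (n = 3). The adult libraries lie between 13.3 and 36.0 kb and the neonatal libraries between 0 and 5.27 kb.

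Markers of mature oligodendrocytes moved with the 6 genes. All 9 genes counted (Mag, Mog, Opalin, Ermn, Aspa, Trf, Klk6, Ninj2 and Ppp1r14a) had more covered length in every adult library, beside 60.0% of all genes, and their sum was 0, 3.88 and 0.535 kb in neonatal and 81.8, 81.5 and 119 kb in adult libraries. In the neonatal lists Mag, Opalin, Ermn and Klk6 had no peak. Of these 9, 7 are also among the other myelin genes described further on. The part of mature oligodendrocytes in the result was not tested. Of 8 OPC markers all had a peak and 4 separated the ages, a share below the 60.0% of all genes. The 4 were Cspg4, Sox10, Olig1 and Olig2, the last 3 of which mature oligodendrocytes also express. Their adult minus neonatal differences were 18.6, 11.1, 15.5 and 8.74 kb. The 8 OPC markers summed to 9.95, 33.3 and 4.29 kb in neonatal and 58.5, 62.4 and 85.2 kb in adult libraries. The median difference of that list was 4.87 kb, beside 0.661 kb for all genes. Pdgfra itself had 1.64, 6.12 and 0.513 kb against 1.59, 1.21 and 2.12 kb, so the ages overlapped at the gene used for sorting. Adult minus neonatal means were -1.12 kb at Pdgfra, -0.503 kb at Ptprz1 and -0.461 kb at Vcan, and 0.989 kb at Lhfpl3. The ages overlapped at each of them. Other cell types gave smaller sums. Neuron markers summed to 0 to 2.22 kb in neonatal and 7.12 to 10.7 kb in adult libraries, and fibroblast markers to 0 to 2.74 and 8.01 to 10.3 kb; in both lists 3 of the 5 genes with a peak separated the ages. Astrocyte markers summed to 0.291 to 7.06 and 12.6 to 22.2 kb, but 2 of 8 separated the ages and the median difference of the list was -0.0772 kb. Most of the adult astrocyte sum lay at Slc1a3, a glutamate transporter, with 9.05, 10.1 and 15.9 kb. Microglia markers summed to at most 4.35 kb, nearly all at Cx3cr1, with 6 of the 8 at 0 in every list, and endothelial markers to at most 7.50 kb.

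The genes differ in length, so coverage was also expressed as the share of the gene body under any peak. Pllp (chromosome 8, 94674894 to 94696278, minus strand, GRCm38) had 4.39, 24.4 and 2.82% of its 21.4 kb covered in neonatal and 89.0, 92.8 and 95.2% in adult libraries. Cldn11 (chromosome 3, 31149920 to 31164324, plus strand, 14.4 kb) had 0, 3.03 and 0% against 69.2, 83.1 and 90.4%. These 2 short genes had the highest adult shares of the 6. Mal (chromosome 2, 127633226 to 127656695, minus strand, 23.5 kb) reached 43.7, 56.1 and 69.0% in adult libraries, and its highest neonatal value was 0.601%. Mbp (chromosome 18, 82475146 to 82585637, plus strand, 110 kb) went from at most 5.05% to 34.9, 33.7 and 42.6%. Mobp (chromosome 9, 120149707 to 120181484, plus strand, 31.8 kb) was at 0% in each neonatal and at 26.1, 24.4 and 28.9% in the adult libraries. Gpm6b (chromosome X, 166238911 to 166388988, plus strand, 150 kb), the longest gene, had the smallest adult shares, 11.1, 12.8 and 22.4%.

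Promoter peaks, those the authors annotated within 3000 bp of a transcription start, were longer in adult libraries at all 6 genes. For all genes with a promoter peak the same held at 60.1% (11143 of 18548). Promoter covered length of Pllp was 0.939, 3.59 and 0.602 kb in neonatal and 15.8, 19.6 and 21.0 kb in adult libraries, and that of Mbp 0.780, 2.14 and 0.435 kb against 13.3, 11.7 and 19.1 kb. Both genes have several annotated starts, which lets long stretches count as promoter. Mobp had 8.76, 8.52 and 11.2 kb of promoter peaks in adult libraries. Mal and Gpm6b had the shortest promoter stretches, 3.61 to 4.12 kb and 2.35 to 3.31 kb in adult libraries.

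Whether a promoter peak was present at all divided the genes. Mbp and Pllp had one in all 3 neonatal lists, Gpm6b in 2, Cldn11 and Mal in 1 each, and Mobp in none. All 6 had one in all 3 adult lists. Mobp was thus the only member of the class with a promoter peak in every adult and no neonatal library, 1 of 6, where 12.1% of all genes with a promoter peak (2249 of 18548) fell in that class. The count depended on neonatal replicate 2: without it, Mobp, Cldn11 and Mal, 3 of the 6, fell in that class, as did 38.2% of all genes. With lists shortened to their 7353 strongest peaks it was 2, Cldn11 and Gpm6b, beside 4.12% of all genes.

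The starts of Mbp did not behave alike. Transcription of Mbp begins at an upstream group of starts, which gives the Golli transcripts found also outside myelin, and at a downstream group, which gives the classic myelin basic proteins. Within 1000 bp of the upstream start (position 82475146), peaks covered 772, 1251 and 435 bp in neonatal and 822, 928 and 832 bp in adult libraries. The ages overlapped there, with a difference of 41.3 bp between means of 819 ± 410 and 861 ± 58.5 bp (SD; exact permutation p = 0.80, n = 3 and 3). Within 1000 bp of the downstream start (position 82554580), peaks covered 0, 154 and 0 bp in neonatal and 1667, 1717 and 1704 bp in adult libraries. The difference of 1645 bp there was far above the spread within either age (exact permutation p = 0.1, the smallest possible).

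The strength of the peaks showed the same split. At the upstream start the strongest peak of the neonatal lists had an authors' fold enrichment of 4.73, 6.04 and 4.31, and that of the adult lists 7.79, 4.40 and 7.73. At the downstream start neonatal replicate 2 alone had a peak among neonatal lists, at 4.05-fold, and the adult peaks reached 16.8, 12.2 and 19.9-fold. The best ranked adult peak belonged to the strongest 4.03, 3.28 and 0.801% of its list. In the authors' deposited table of differential sites, no site lay within 1000 bp of the upstream start. The same authors' deposited table held 1 site within 1000 bp of the downstream start, with a log2 fold change of 3.22 (adult over neonatal).

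Besides the peak of neonatal replicate 2 at the downstream start, neonatal Mbp peaks lay upstream of it, in the intron of the longer transcripts. Replicate 1 had 4 peaks between 82548646 and 82550439, and replicate 2 had 3 between 82548679 and 82550848, the strongest 8.11-fold, with further Mbp peaks on either side. Replicate 3 had none there, so its only Mbp peak was the one at the upstream start. In adult libraries this place lay inside the widest domain of the gene, a domain being a run of peaks of one gene joined across gaps of up to 1000 bp. That domain measured 23.2, 23.4 and 25.0 kb. Further peaks between 82507686 and 82539367, also within Mbp, were assigned by the authors to the pseudogene Rpl21-ps8. They covered 0, 0.943 and 0 kb in neonatal and 10.2, 11.1 and 11.8 kb in adult libraries. When peaks were joined by position whatever their assigned gene, the adult Mbp domain was 34.4, 34.0 and 34.3 kb. The neonatal widest domains were 1.79, 2.17 and 0.435 kb by either way of counting.

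**Figure D2:**
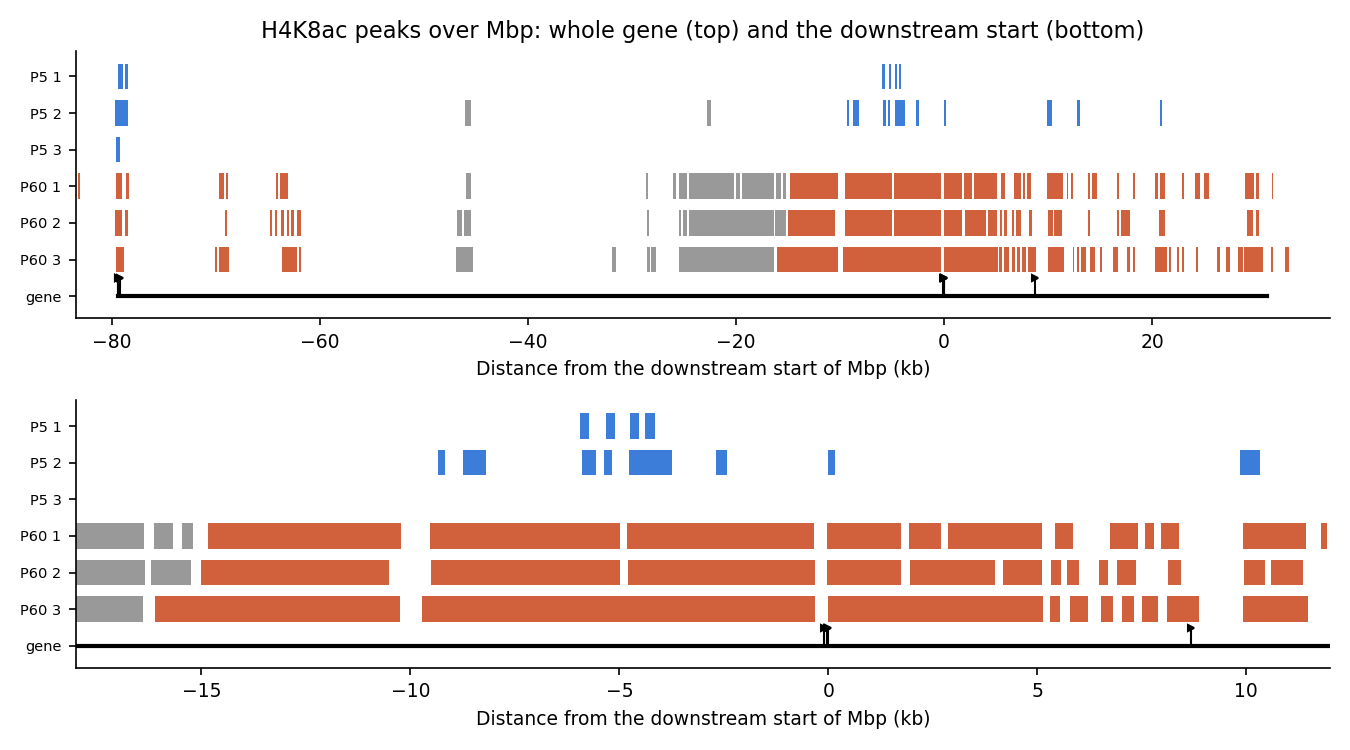
H4K8ac peaks over Mbp in each library, as distance from the downstream start (kb, horizontal axis), for the whole gene and for the stretch around that start; blue and orange blocks are neonatal and adult peaks assigned to Mbp, grey blocks those assigned to Rpl21-ps8, and arrows mark starts. All 6 libraries have a peak at the upstream starts, and the long block around the downstream start is in the 3 adult libraries.

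Domains were wider in every adult library for all 6 genes, a pattern shared by 58.1% of all genes (13615 of 23433). The median difference was 17.2 kb for the 6 genes, against 0.661 kb for all genes and 5.51 kb at the 95th percentile. By widest domain, too, Mbp and Pllp already ranked high in the neonatal lists. They stood at percentiles 99.6, 97.0 and 92.8 (Mbp) and 97.8, 99.8 and 95.2 (Pllp). The widest Pllp domain was 1.05, 5.13 and 0.573 kb in neonatal and 21.6, 22.6 and 24.6 kb in adult libraries. In each adult library all Pllp peaks made up 1 domain, which spanned nearly the whole gene. Cldn11 had adult domains of 15.5, 27.7 and 30.5 kb that began before its start and, in replicates 2 and 3, ran past its end to 31176225 and 31176161. In adult replicate 1 the same stretch was split near the end of the gene. Peaks there ended at 31163561 and resumed at 31164563, a gap just over the joining limit of 1000 bp.

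The widest Mobp domain was 16.1, 14.3 and 11.0 kb in adult libraries and lay around its first start. Mal had 6.65, 11.3 and 11.6 kb, inside the gene rather than at its start. Gpm6b was of another kind. Its widest adult domain was 4.90, 6.17 and 10.3 kb and its peaks formed 17, 19 and 19 separate domains, so its coverage was spread over many short stretches along 150 kb.

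Intronic peaks separated the ages for 5 of the 6 genes, against 49.6% of all genes with an intronic peak (3720 of 7499). Gpm6b carried most of its adult coverage there, with 12.4, 15.4 and 29.2 kb in 32, 41 and 44 peaks, where the neonatal lists held 1 intronic peak of 143 bp, in replicate 2. Intronic peaks were 73.3, 79.4 and 85.7% of adult Gpm6b coverage. In the adult lists as a whole intronic peaks were 26.8 to 28.8% of covered length. Mbp had 12.8, 13.1 and 13.1 kb of intronic peaks in adult and 0.864, 2.75 and 0 kb in neonatal libraries. Mal had 6.04, 7.96 and 10.3 kb in adult libraries and none in neonatal ones. Cldn11 had 5.46, 3.24 and 3.40 kb against 0, 0.260 and 0 kb, and Mobp under 1 kb in each adult library (0.632 to 0.921 kb). Pllp was the exception: adult values of 3.69, 1.44 and 2.63 kb overlapped the 1.68 kb of neonatal replicate 2 (exact permutation p = 0.20, n = 3 and 3). Without neonatal replicate 2, or without adult replicate 2, Pllp no longer overlapped and all 6 genes separated. The share of all genes that separated by intronic length in these reduced sets was not computed.

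Distal peaks, those the authors annotated as distal intergenic, separated the ages for Cldn11 and Mal, 2 of the 4 members with a distal peak, where 47.1% of all genes with a distal peak did so (2917 of 6187). Cldn11 had 10.9, 10.6 and 10.2 kb of distal peaks in adult libraries, nearly equal between replicates, and 0, 0.943 and 0 kb in neonatal libraries. The longest stretch common to all adult lists there was 3069 bp (31169050 to 31172118), downstream of the gene. Distal peaks were the largest class of Cldn11 coverage in each adult library, at 42.8, 40.6 and 34.0%. A further group of adult peaks assigned to Cldn11 lay beyond it, up to 53432 bp from the start in replicate 1. That last peak was annotated as 3' UTR, not as distal. Peaks this far out cannot be tied to Cldn11 from these lists.

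Mal had 4.92, 5.21 and 5.80 kb of distal peaks in adult libraries and none in neonatal ones. The Mal peak ranked first by the authors' p-value in each adult list was not at the promoter but downstream of the gene, with authors' fold enrichments of 17.4, 9.40 and 14.6. By fold enrichment the promoter peak was higher in adult replicate 2, at 12.2. The stretch shared by the adult lists ran over 2983 bp, from 127627710 to 127630692. The next gene on that side, Mrps5, encodes a mitochondrial ribosomal protein, and its own peaks within 10 kb of Mal covered 4.80, 5.18 and 5.74 kb in adult and 0 kb in neonatal libraries. A peak between genes cannot be tied to either from these lists.

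Mobp had distal peaks in adult replicates 1 and 2 (5.54 and 4.12 kb) and none in replicate 3, so the ages were not separated (exact permutation p = 0.40, n = 3 and 3). The replicates differed there in annotation and in assigned gene. In replicate 3 a peak of 4651 bp, from 120144781 on, reached the promoter zone and was annotated as promoter. Its first 989 bp (120144781 to 120145769) lay in all 3 adult lists. Peaks within 10 kb of Mobp that were assigned to Gm5922 covered 0, 1.13 and 3.97 kb in adult libraries and 0 kb in neonatal ones. With peaks taken by position over the gene body extended by 10 kb, Mobp distal length separated the ages. That difference was 4.92 kb (exact permutation p = 0.10, n = 3 and 3). Distal upstream peaks ranked first among Mobp peaks by the authors' p-value in adult replicates 1 (17.4-fold) and 2 (12.3-fold), and a neighbouring distal peak of replicate 2 had a higher fold, 12.8. Within 10 kb of Mobp, neonatal replicate 2 had 0.443 kb of peaks that were assigned to another gene, Gm38642, where adult libraries had 1.04, 0.756 and 1.16 kb. Mbp had 0.346, 0 and 0.465 kb of distal peaks in adult libraries and none in neonatal libraries. Pllp and Gpm6b had no distal peak in any list.

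**Figure D3:**
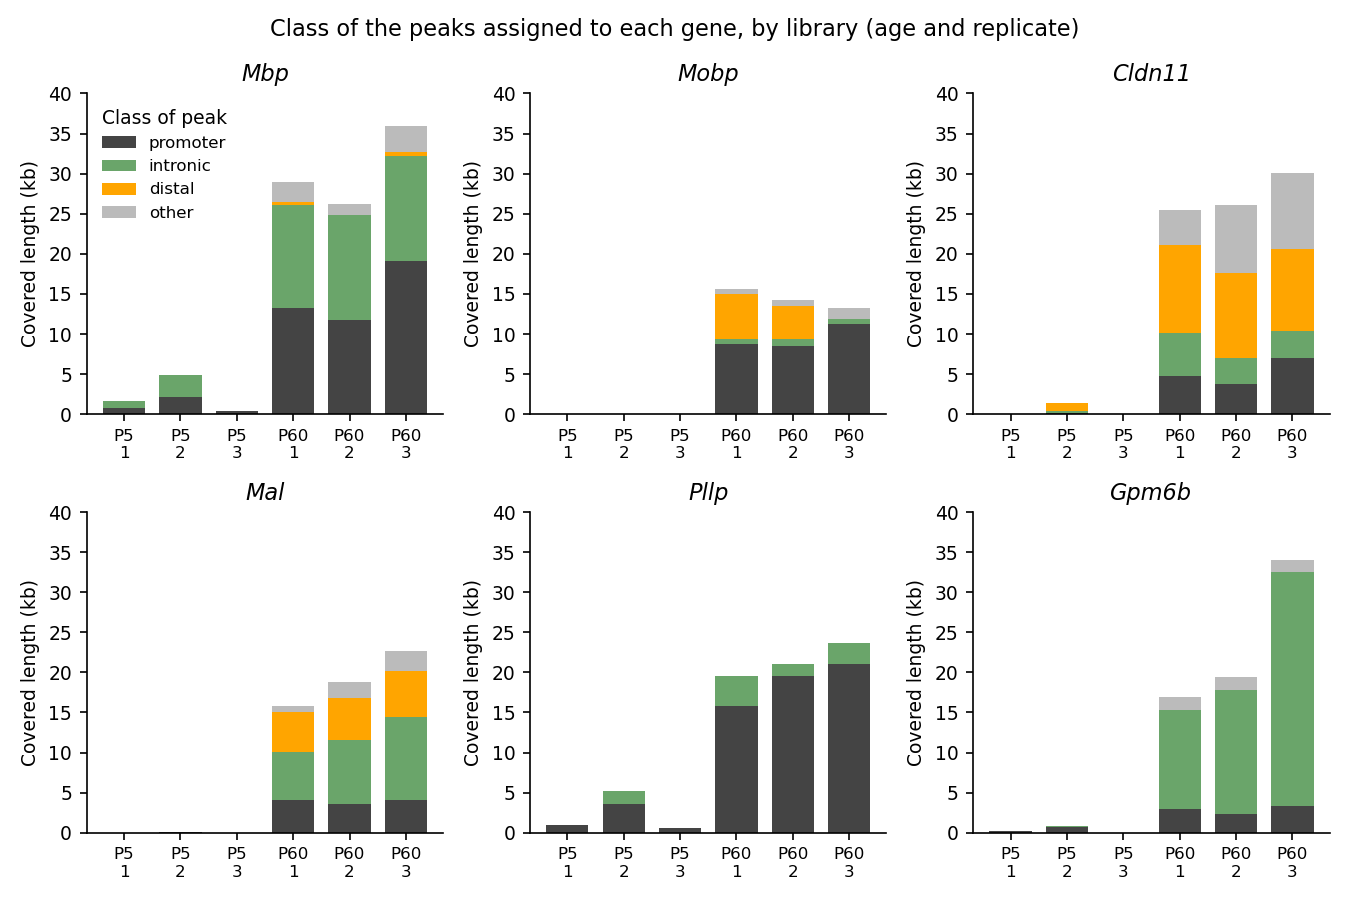
Covered length (kb, vertical axis) of promoter, intronic, distal and other peaks for each gene, stacked, in the 3 neonatal (P5) and 3 adult (P60) libraries. Promoter peaks are 81.1 to 93.2% of adult coverage at Pllp and 9.72 to 17.5% at Gpm6b, while distal peaks are 34.0 to 42.8% at Cldn11.

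Adult libraries agreed on a core of each gene. Bases covered in all 3 adult lists came to 22.4 kb at Mbp, 21.0 kb at Cldn11, 18.7 kb at Pllp, 13.7 kb at Mal, 9.74 kb at Gpm6b and 8.06 kb at Mobp. As a share of the bases covered in any adult list this was 77.4% at Pllp, 63.5% at Cldn11 and 55.8% at Mbp, and 24.7% at Gpm6b, the gene of short scattered peaks. Peaks of the 6 genes merged into 149 regions over the 6 libraries. Of these, 53 were in all adult and no neonatal lists, 13 in all adult and at least 1 neonatal list, and 3 in all neonatal lists. No region was found in a neonatal list without an adult one. Another 53 regions were in a single library, 29 of them at Gpm6b. These counts were not made over all genes, and the adult lists were longer. They cannot be read as particular to the 6 genes.

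Neonatal peaks sat inside the adult core. The bases covered in any neonatal list were also covered in all 3 adult lists for 97.2% at Pllp, 90.5% at Cldn11, 83.5% at Gpm6b and 80.9% at Mbp. Conversely, neonatal peaks reached 27.4% of the adult core at Pllp and 18.0% at Mbp, and 1.03% at Mal. Most neonatal bases thus lay within the adult core. The same shares were not computed over all genes, and the adult lists covered more. They cannot be read as particular to these genes. Peaks are those that passed the authors' threshold, so a gene without one may still carry the mark below it.

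**Figure D4:**
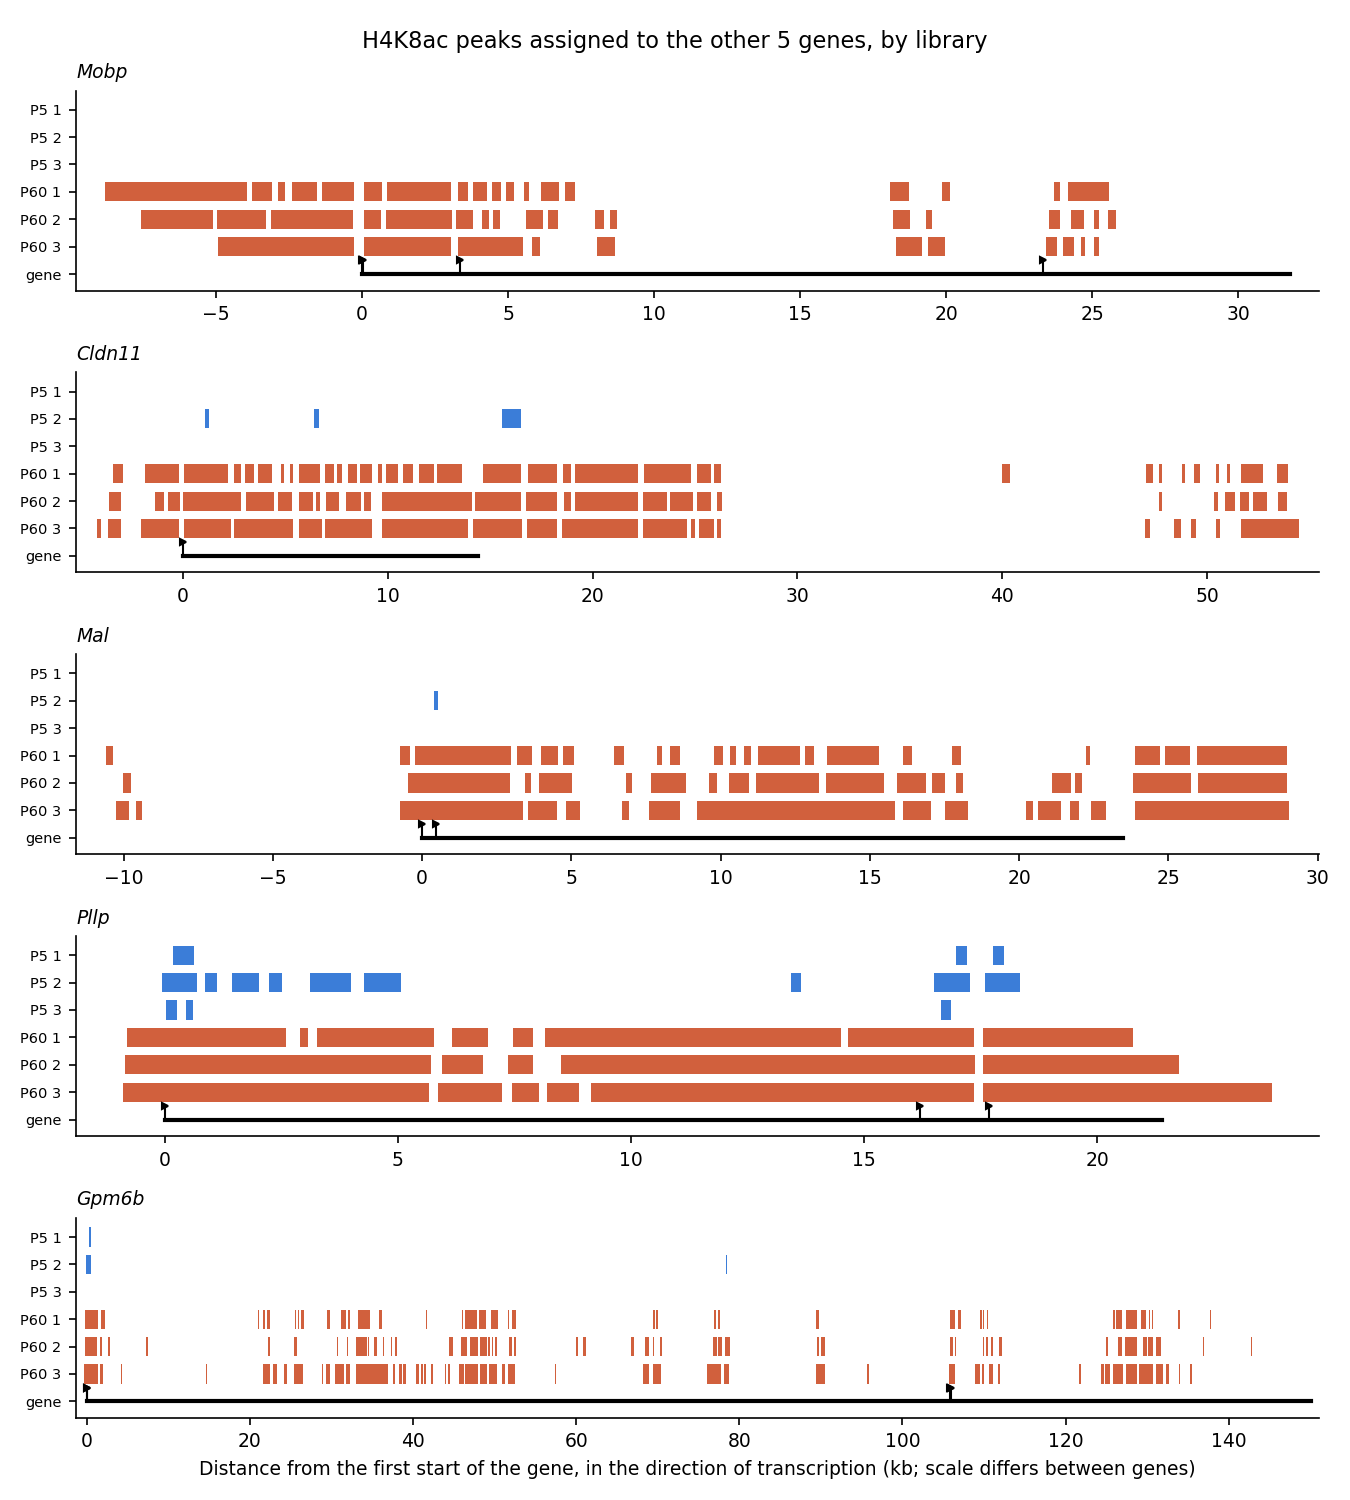
H4K8ac peaks assigned to Mobp, Cldn11, Mal, Pllp and Gpm6b in each library, as distance from the first start of the gene in the direction of transcription (kb, horizontal axis); blue is neonatal, orange adult, and the black bar with arrows is the gene with its starts. Adult peaks of Pllp form 1 joined domain over the gene, and those of Gpm6b form 17 to 19 domains.

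The immediate starts were read with their sequence. Peaks of the adult lists flanked the starts of Mbp (downstream), Mobp and Cldn11 but left a short gap. The gap took in the start itself at Mobp and Cldn11, and ended just before the Mbp start at 82554580. The gap measured 334, 284 and 297 bp at the Mbp downstream start, 359, 384 and 343 bp at the Mobp start, and 249, 159 and 231 bp at the Cldn11 start. A gap was counted where the base 100 bp upstream of the start was free of peaks and a peak edge lay within 500 bp on either side, a measure added after the values were seen. Among all annotated starts that were covered or flanked in the 3 adult lists, 18.6% (3873 of 20867) had such a gap in all 3 lists, with a median width of 249 bp. At the starts of Mal, at the first start of Pllp and of Gpm6b, and at the upstream start of Mbp, the adult peaks ran across without a gap.

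Promoter sequences of 5 of the 6 genes matched by symbol in the RefSeq table (GRCm38.p6), and the 250 bases upstream of the start are shown for 3 of them: Mobp and Cldn11 as starts with a gap, and Pllp as a start that the adult peaks ran across. The RefSeq start of Pllp lies slightly inside the first start of the annotation used for the peaks. Capitals mark matches, on either strand, to any of 6 short motifs. They were ACAAAG, the core of sites for SOX factors, and CTGGNAC, the core of sites for the factor Myrf. The others were CAGCTG, which is an E-box, then TATAAA, the TATA box, then CCAAT, the CCAAT box, and last GGGCGG, the GC box. In Mobp the capitals are SOX cores on the opposite strand, in Cldn11 CCAAT boxes on the opposite strand, and in Pllp GC boxes. Positions are chr9:120149492-120149741 on the plus strand, chr3:31149670-31149919 on the plus strand and chr8:94696243-94696492 on the minus strand, each written 5′ to 3′.
Mobp: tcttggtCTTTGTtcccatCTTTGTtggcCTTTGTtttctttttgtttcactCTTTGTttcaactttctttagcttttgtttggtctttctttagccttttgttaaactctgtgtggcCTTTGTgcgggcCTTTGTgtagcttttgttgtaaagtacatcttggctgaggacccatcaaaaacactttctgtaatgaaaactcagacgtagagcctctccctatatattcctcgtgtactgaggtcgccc
Cldn11: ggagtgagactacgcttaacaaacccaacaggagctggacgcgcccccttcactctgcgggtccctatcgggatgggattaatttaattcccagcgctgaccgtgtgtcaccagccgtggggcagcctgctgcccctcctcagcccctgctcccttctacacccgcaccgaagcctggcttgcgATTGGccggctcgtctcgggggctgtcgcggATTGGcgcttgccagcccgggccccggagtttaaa
Pllp: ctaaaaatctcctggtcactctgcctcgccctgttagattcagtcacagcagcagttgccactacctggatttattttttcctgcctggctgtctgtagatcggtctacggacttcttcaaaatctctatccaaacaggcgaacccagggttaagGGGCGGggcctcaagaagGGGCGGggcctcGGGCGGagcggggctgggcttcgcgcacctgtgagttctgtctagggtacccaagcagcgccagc

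The 250 bases shown for Mobp were not touched by a peak in any of the 6 lists. Those of Cldn11 were covered over 31, 93 and 69 bp in the adult lists and not in the neonatal ones. Those of Pllp were covered in full in each adult list, over 91 bp in neonatal replicate 2 and over 2 bp in replicate 3. The Mobp stretch held 6 SOX cores and the Gpm6b stretch 1, so 2 of 5 members had one, beside 16.5% of the 32851 promoters of the table. The CCAAT box was in 1 of 5 members (Cldn11, 2 matches), beside 33.8%, and the GC box in 1 of 5 (Pllp, 3 matches), beside 32.7%. The Myrf core, the E-box and the TATA box were in 0 of 5, beside 16.1, 13.0 and 12.4%. The stretches also differed in CpG dinucleotides, with 4 in Mobp, 7 in Mal, 12 in Pllp, 15 in Gpm6b and 19 in Cldn11, where the median promoter had 6.

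At the other starts the ages differed as at the downstream start of Mbp. Within 1000 bp of the start of Mobp (120149742), coverage was 0, 0 and 0 bp in neonatal and 1474, 1428 and 1658 bp in adult libraries. For Cldn11 (31149920) it was 0, 0 and 0 against 1752, 1646 and 1770 bp, and for Mal (127656695) 0, 141 and 0 against 1588, 1463 and 1726 bp. These 3 starts were almost bare in neonatal progenitors. The start of Pllp (94696278) was not: it had 443, 877 and 388 bp against 1796, 1840 and 1898 bp. Gpm6b, at its first start (166238911), had 198, 723 and 0 bp against 1190, 1177 and 1320 bp. An internal Gpm6b start (166344692) had no neonatal coverage and 602, 524 and 683 bp in adult libraries. For each of these starts the exact permutation p was 0.1, the smallest possible. The share of all annotated starts that separated the ages in such windows was not computed. The separation at these starts and at the downstream start of Mbp cannot be read as particular to these genes.

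The comparison was repeated on lists with equal numbers of peaks, the 7353 strongest of each library by the authors' p-value. These lists were not equal in covered length. They covered 2.54, 5.43 and 2.33 Mb in neonatal and 10.5, 11.8 and 16.7 Mb in adult libraries. All 6 genes still had more covered length in every adult library, where 34.4% of all genes with such a peak did (3737 of 10859). In these short lists Mbp had 1.10, 2.29 and 0.435 kb in neonatal and 6.21, 6.24 and 20.4 kb in adult libraries, and Pllp 0.939, 2.26 and 0.602 kb against 13.0, 19.6 and 21.0 kb. Mobp, Cldn11, Mal and Gpm6b had no peak among the strongest of any neonatal library. Their adult values ranged from 1.45 kb (Gpm6b, replicate 2) to 9.29 kb (Mal, replicate 3). Each member had such a peak in each adult library, and 2 of 6 had one in each neonatal library. The share of all genes with such a peak in each library was not computed. These counts of presence cannot be read as particular to the 6 genes. Intronic peaks almost all dropped out at this length, and no gene separated the ages by them.

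The authors' deposited table gave 88 differential sites to the 6 genes by overlap with their peaks. Every one of the 88 was positive in the authors' deposited table, read as higher in adult cells, as were 99.4% of the 43888 sites listed (43634 sites), so the direction does not set these genes apart. Positive sites of the authors' deposited table overlapped at least 2 adult lists in 99.4% of cases and at least 2 neonatal lists in 14.1%. The median of the 88 sites was 2.91 in the authors' deposited table, beside 2.41 for all listed sites. The medians differed by class in the authors' deposited table. The 41 intronic sites of the members had a median of 2.89, beside 2.87 for all listed intronic sites. Their 20 promoter sites had 2.72, beside 1.86, and their 17 distal sites 3.23, beside 2.78. In 78 of the 88 sites no neonatal list had a peak. The same count was not made over all listed sites, so it cannot be read as particular to these genes. The table lists only sites that passed the authors' threshold, so a median over its sites is a median over called sites.

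Mobp had the highest median of the members, 4.42 over 9 sites of the authors' deposited table. Its upstream distal site (120144027 to 120144426) had the smallest adjusted p of the 88 in the authors' deposited table, 1.33e-16, at a log2 fold change of 5.02. Cldn11 followed with a median of 3.33 over 18 sites of the authors' deposited table, 13 of them distal. The median for Mal was 2.88 over 9 sites in the authors' deposited table, and its downstream distal site (127628199 to 127628598) had 3.80 with an adjusted p of 2.10e-14. Medians in the authors' deposited table were 2.86 over 31 sites for Gpm6b, 2.71 over 16 for Mbp and 2.65 over 5 for Pllp. Gpm6b held the largest single value of the members in the authors' deposited table, 6.49 at an intronic site (166368543 to 166368942). Pllp, the gene with most neonatal coverage of its body, held the lowest median, and 3 of its 5 sites overlapped a neonatal list in the authors' deposited table.

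**Figure D5:**
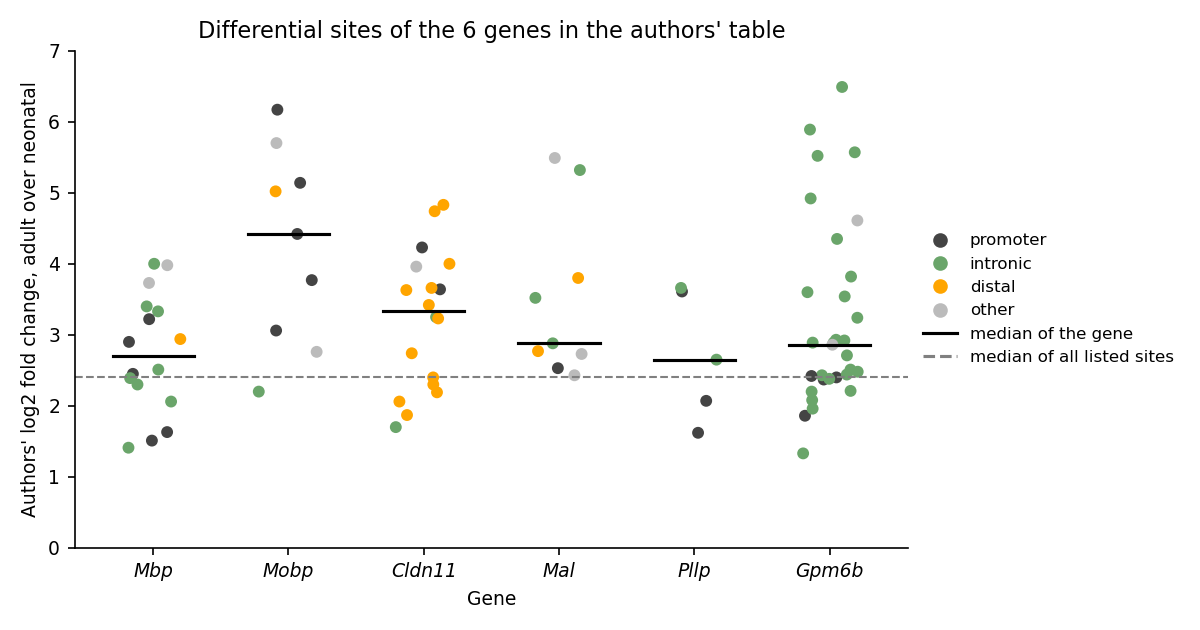
Log2 fold change (adult over neonatal, vertical axis) of the 88 sites of the authors' deposited table that were assigned to the 6 genes, coloured by class; black bars are gene medians and the dashed line is the median of all listed sites, 2.41. Gene medians run from 2.65 (Pllp) to 4.42 (Mobp). Medians of all listed promoter, intronic and distal sites are 1.86, 2.87 and 2.78.

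Other myelin genes showed the same order of the ages. Of 32 further genes of myelin proteins, lipids and their regulators, 32 had more covered length in every adult library, with a median difference of 10.9 kb, beside 60.0% and 0.661 kb for all genes. Qk, an RNA-binding protein that acts on Mbp messenger RNA, had 2.33, 2.92 and 1.52 kb in neonatal and from 16.9 to 28.5 kb in adult libraries. Fyn, a kinase that promotes Mbp translation, had 0.697, 4.12 and 0.316 kb against 14.9, 14.9 and 22.6 kb. Qk and Fyn had peaks in all 3 neonatal lists.

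The relatives counted from the members' protein families had little coverage. Gpm6a, the neuronal relative of Gpm6b, had 0.269, 0.326 and 0.639 kb in adult libraries and none in neonatal ones. Of 10 MARVEL family genes 9 had a peak and 3 of these separated the ages, where 60.0% of all genes did. Mal2, the close relative of Mal, had 1 peak of 0.454 kb, in neonatal replicate 2. Cmtm5 was the most covered of those 9 in adult libraries, with 4.16, 4.02 and 3.06 kb against 0.713, 1.84 and 0.306 kb. Of 7 other claudins 4 had a peak and 0 separated the ages, beside the same 60.0%. Cldn5, of vessel walls, had 0, 0.259 and 0 against 0.229, 0.666 and 0.513 kb, Cldn10 had 0.765 kb in neonatal replicate 2 alone, Cldn12 had 0.701, 0.991 and 0 against 0.924, 1.31 and 1.71 kb, and Cldn15 had 0.146 and 0.151 kb in adult replicates 1 and 2.

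The genes whose coverage over the 6 libraries was most like the mean profile of the members were Tyro3, a receptor kinase, Trappc10, a subunit of a vesicle tethering complex, Retreg1, a receptor for turnover of the endoplasmic reticulum, Myrf, the transcription factor of the myelin programme, and Serinc5, a membrane protein. Likeness was the Euclidean distance on log2 of covered bases plus 100, and these genes lay 0.879 to 1.09 from the mean profile. The members themselves lay 1.00 (Gpm6b) to 3.92 (Mbp) from it. Tyro3 had 0.219, 0.885 and 0.223 kb in neonatal and from 17.7 to 21.7 kb in adult libraries. Myrf had 0.236, 1.36 and 0 kb against 19.3, 21.0 and 26.1 kb.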

How the data were processed

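H4K8ac ChIP-seq was analysed from 1 peak list per library (3 neonatal, 3 adult). Per the submitters' processing notes, the tools were Trim Galore, Bowtie2 2.4.5, SAMtools, deepTools, MACS2, DiffBind and ChIPseeker on GRCm38, with no settings given. Peaks carry, as deposited and per the file headers, a score, a ratio (fold enrichment over background), p-values and q-values as −log10, and the nearest gene. Their q-values lie under 0.05. The authors also deposited a table of sites with a log2 fold change and an adjusted p-value. It names no direction, which was read from the lists that its sites overlap. Sites took the gene of the peak that shared the most bases with them.

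From these, covered length per gene, class and library and widest domains were computed for all genes (Python 3.11.15, numpy 2.4.6, pandas 2.3.3, scipy 1.17.1), with exact two-sided permutation tests over 20 arrangements and Benjamini-Hochberg adjustment, and tested on simulated data. Coordinates are counted from 1. Read depth is unknown. Named genes were the members, the 5 genes nearest to their mean profile, 8 genes of the lists and the cell type markers given with their lists, with Cldn15, Slc1a3 and Cx3cr1 singled out after their values were seen; 1 item of the lists is not reported here and was left out of their counts and sums. Members and lists were chosen with earlier results of these data known. Whether replicates of 1 age came from separate litters is not stated, so p-values measure the spread between these libraries. Alternatives were lists with equal numbers of peaks, a q-value under 0.005, division by total covered length and assignment by position. Others were different joining gaps and promoter limits, a replicate block and leaving out each library.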

Additional observations from a re-analysis of the deposited data

How the results depend on the processing

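Covered length, promoter length and widest domains separated the ages for 4 to 6 genes under every alternative run. No per-gene difference changed sign, but on the strongest peaks the intronic differences of all members except Mbp fell to 0. Of 348 values for single genes, 331 kept their call, separated or not, 11 lost and 6 gained separation. Runs in which Pllp or Gpm6b had no distal peak count among those kept. The replicate block left the differences themselves as they were. On the 7353 strongest peaks of each library, the count for intronic length was 0 and that for distal length 1, since few such peaks are left, and the count of genes whose promoter peaks were adult-only was 2. With peaks taken by position over the gene body extended by 10 kb, distal length separated the ages for 4 genes. Leaving out each library in turn gave 1 to 3 genes with a promoter peak in adult lists alone, with 3 without neonatal replicate 2, and 5 to 6 genes for intronic and 2 to 3 for distal length. The replicate numbers did not pair the libraries: deviations of same-numbered libraries correlated at -0.0586, 0.0149 and 0.0812, and with the replicate block, whose smallest exact sign-flip p is 0.25, the counts were 6 for covered, promoter and domain length, 5 for intronic and 2 for distal length. In the authors' deposited table, 76 of the 88 sites had an adjusted p under 0.005 and 86 shared at least 50% of their bases with a peak. Depth could not be read from the lists, so a gene without a peak has an unknown level under the threshold.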
